A study of Mus musculus with 18 samples.

Results

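The cytochrome P450 genes of families 2, 3 and 4 were followed in ileal epithelial cells across diet and genotype. Members were all genes whose array name is Cyp followed by the family number 2, 3 or 4, a subfamily letter or letters and a number, with a probe well above its local background on at least 5 of 6 arrays of any group. Of 71 gene names of this form, 51 passed, in 17 subfamilies, out of 21542 genes tested. Each gene is represented by its brightest probe. Cyp4f39 was just inside the filter, well above background on 2, 3 and 5 arrays of the 3 groups, and Cyp2d34 just outside it, with 4, 1 and 1. The 20 names below the filter include Cyp4a14, Cyp2j5, Cyp2j11, Cyp2c37 and Cyp2a4, and 13 of the 20 were not well above background on any array.

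The samples came from 18 male mice on the C57BL6/J background, with 1 array per mouse and 6 mice per group. Pgc1α fl/fl mice were on chow or on a Western diet (WD, named a high-fat diet in the labels), and their iPgc1α-/- littermates on WD. Diets ran for 8 weeks from 8 weeks of age, and WD gave 42% of its energy as fat and held 0.2% cholesterol. All mice carried the floxed Pgc1α allele and were sacrificed after an overnight fast, 3 h after lights on (zeitgeber time 3), and in iPgc1α-/- mice Cre under the Villin promoter deletes part of the gene in the intestinal epithelium. Cells were released from the ileum by chelation, so cells within the epithelial layer other than enterocytes can be present. Fewer cells of a type and less RNA per cell cannot be told apart in such samples.

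Cytochrome P450 enzymes are haem proteins of the endoplasmic reticulum that insert an oxygen atom into their substrate, with electrons from P450 oxidoreductase (Por). Families 2 and 3 oxidise drugs, dietary plant compounds, steroids and arachidonic acid, and members of family 4 hydroxylate the end of fatty acid and eicosanoid chains. In the gut they act in absorptive enterocytes, before absorbed compounds reach the liver, and many are targets of the nuclear receptors PXR (Nr1i2), CAR (Nr1i3), PPARα (Ppara) and HNF4α.

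Most subfamilies lie in gene clusters, in which neighbours arose by duplication. On mm9, the 11 Cyp2c probes lay at chr19:39116674-44079594, the 7 Cyp2d probes at chr15:82201687-82620634, the 4 Cyp2j probes at chr4:95712305-96235340 and the 7 Cyp3a probes at chr5:138335412-146920697. The 3 probes of Cyp4a10, Cyp4a31 and Cyp4b1 lay at chr4:115205268-115297465, and 7 of the 8 Cyp4f probes at chr17:32629616-33062650, while the probe of Cyp4f18 was on chromosome 8, at chr8:74512381-74512440. Whether a probe lies in an exon or a UTR was not determined here.

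Duplication limits what a probe can tell apart. Of the 51 probes, 9 list transcripts of a further gene in the array annotation. The Cyp3a11 probe lists Cyp3a41a, Cyp3a41b and Cyp3a44, the Cyp2c69 probe Cyp2c40, Cyp2c67 and Cyp2c68, the Cyp2c68 probe Cyp2c40 and Cyp2c69, and the Cyp2c40 probe Cyp2c68. The Cyp2b9 probe also lists Cyp2b10, Cyp2c66 Cyp2c65, Cyp3a25 Cyp3a59, Cyp4a10 Cyp4a32, and Cyp2j13 Cyp2j12. In addition, the probes of Cyp2c67 and Cyp2c68 match at 55 of 59 aligned bases and those of Cyp3a25 and Cyp3a57 at 49 of 52. A stretch of 30 bases of each is shown, with the bases that differ in capitals, since these 2 pairs can take up each other's RNA.
Cyp2c67: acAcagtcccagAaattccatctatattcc
Cyp2c68: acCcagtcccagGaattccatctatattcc
Cyp3a25: gtgtcaagagataaacccagaactggaTcA
Cyp3a57: gtgtcaagagataaacccagaactggaCcG
The members of each such set are counted as separate genes but are not independent measurements. The genotype results turn on 3 further probes, of which the first 30 of 60 bases are given.
Cyp2a12: gaccacgtgcatggaagaaatagaaaacac
Cyp4a10: aaatgggatctacctacatctcaagaagct
Cyp4a31: tattaatcctcacacaagtttctccatctt
These 3 probes lay at chr7:27821770-27821829, chr4:115205268-115205756 (a span longer than the probe) and chr4:115251553-115251612 on the plus strand of mm9.

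The arrays of each group were not alike for these genes. Pgc1α fl/fl chow replicate 4 was the lowest of its group for 35 of the 51 members and the lowest of all 18 arrays for 28. It also had the lowest summed signal of the 7 proximal small intestine markers in its group (14.58 on the log2 scale, the other 5 at 15.72 to 16.24) and the highest of the 5 distal ileum markers (18.41, the others at 17.40 to 18.30). The same array was the lowest for enterocyte (19.67, the others at 19.83 to 19.99) and Paneth markers (18.51, the others at 18.76 to 18.96). It was lowest as well for enteroendocrine (13.08, the others at 13.48 to 13.87) and myeloid markers (14.40, the others at 15.29 to 15.52). For crypt and cycling markers it was the highest (13.17, the others at 12.42 to 12.84). Signals were summed before the log2 was taken, here and below, so the brightest markers of a list weigh most. The myeloid sum is nearly that of Lyz2 alone (14.35 to 15.50 on chow). A sum does not show that every marker of its list moved. Which of these sums goes with the P450 signals of this array was not tested. Pgc1α fl/fl WD replicate 6 was the lowest of its group for 28 members and iPgc1α-/- WD replicate 1 for 31. All 3 arrays were on the third of 3 slides, each of which held 2 arrays of every group. The enterocyte markers were all measured, and of 8 hepatocyte markers Alb, Ahsg, Fgb and Hpx did not pass the filter. Apoh, Ttr, Serpina1c and Hp did, with Serpina1c at 9.26 to 11.10 in Pgc1α fl/fl mice, and the summed signal of these 4 was 10.35 to 11.01 on chow and 9.63 to 11.27 on WD. None of them was called by diet, with Apoh at 0.47 (adjusted p = 0.00158). Ppargc1a, the gene of Pgc1α, had WD signals of 11.26 to 11.45 in Pgc1α fl/fl and 11.36 to 12.01 in mice labelled iPgc1α-/-, so it was no lower in the latter. Whether its probes lie in the deleted exons was not determined, so they check nothing, and directions by genotype refer to the labels.

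**Figure D1:**
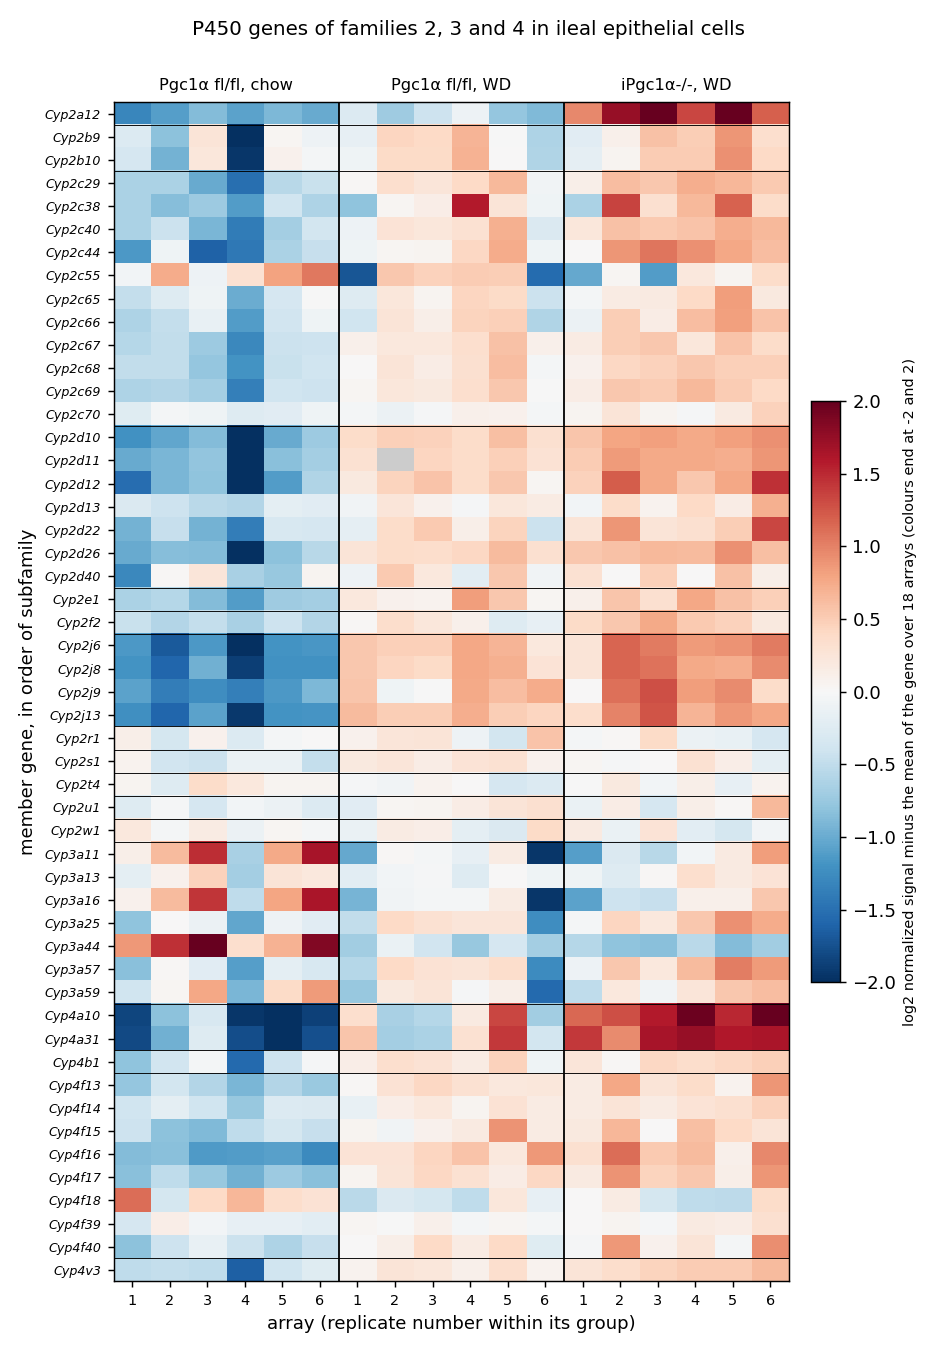
Log2 normalized signal of each of the 51 members (rows, in order of subfamily) on each of the 18 arrays (columns), as the difference from the mean of the gene over all arrays. Colours end at -2 and 2 and the grey cell is an outlying spot that was left out; most rows are blue on chow and red on WD, chow array 4 holds the darkest blue in many rows, and Cyp3a11, Cyp3a16, Cyp3a44 and Cyp4f18 run the other way.

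The first comparison asked what WD did in Pgc1α fl/fl mice. Of the 51 members, 26 rose on WD and 4 fell, where a call needs both a Benjamini-Hochberg adjusted p from limma of at most 0.05, over all 32726 probes, and more than a 1.5-fold difference. These shares, 51% and 7.84%, stand beside 3.22% and 5.2% of all genes tested. The median log2 difference was 0.62 over the members and 0.00 over all genes. All 4 Cyp2j genes, 5 of 7 Cyp2d, 7 of 11 Cyp2c, both Cyp4a and 5 of 8 Cyp4f genes rose, with Cyp2e1, Cyp4b1 and Cyp4v3. Those that fell were Cyp3a11, Cyp3a16, Cyp3a44 and Cyp4f18. Of the 16 members above the adjusted p limit, the log2 differences ran from -0.67 to 0.62. At an adjusted p of 0.05 or lower without a fold limit there were 35 members, 68.6% of them against 24.6% of all genes. The 6 arrays of the diets did not overlap for 23 members higher on WD and 1 lower (45.1% and 1.96%), against 5.11% and 5.3% of all genes. Of the 45 members that met the filter in every group, 24 rose and 3 fell, and the arrays did not overlap for 20 higher and 0 lower. Each of the 30 members called by diet had the same direction within each of the 3 slides, as did 99.5% of all 1815 genes called by diet, so this says nothing particular of the members. The count that fell was 2 instead of 4 without chow replicate 3, 5 or 6 or WD replicate 1 or 6, through Cyp3a11 and Cyp3a16. Without chow replicate 4, 28 of the 30 passed (24 higher and 4 lower), Cyp2c38 and Cyp4b1 being lost.

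Cell type markers also differed between the diets. The summed signal of the 7 proximal small intestine markers was 14.58 to 16.24 on chow and 16.69 to 16.97 on WD, with Lct, Adh1 and Cubn higher and Slc40a1 lower of the 7. The 5 distal ileum markers were at 17.40 to 18.41 on chow and 17.38 to 17.88 on WD, with Slc10a2 and Slc51b lower by 1.07 and 0.94 and Fgf15 higher by 2.47. The T cell markers had 13.50 to 15.37 on chow and 12.13 to 13.05 on WD, with all 4 that were measured lower, and the B and plasma cell markers 9.80 to 11.27 and 7.36 to 9.53, with 3 of 4 lower. Of 6 goblet cell markers, 5 were lower, at a summed 18.29 to 18.69 on chow and 17.32 to 18.39 on WD. The 9 enterocyte markers were at 19.67 to 19.99 on chow and 19.94 to 20.18 on WD, with Alpi and Apoa4 higher. Of the other epithelial markers, 1 of 5 of crypt and cycling cells (Top2a) and 1 of 5 of Paneth cells (Mmp7) were lower. So were 1 of 6 enteroendocrine markers (Chga) and 1 of 3 tuft markers (Trpm5), while 1 enteroendocrine marker (Nts) was higher. The median differences were -0.23 for the crypt, 0.00 for the Paneth, 0.01 for the enteroendocrine and 0.16 for the tuft markers. These single markers thus do not stand for their cell types. The part of these shifts in the P450 differences was not tested.

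**Figure D2:**
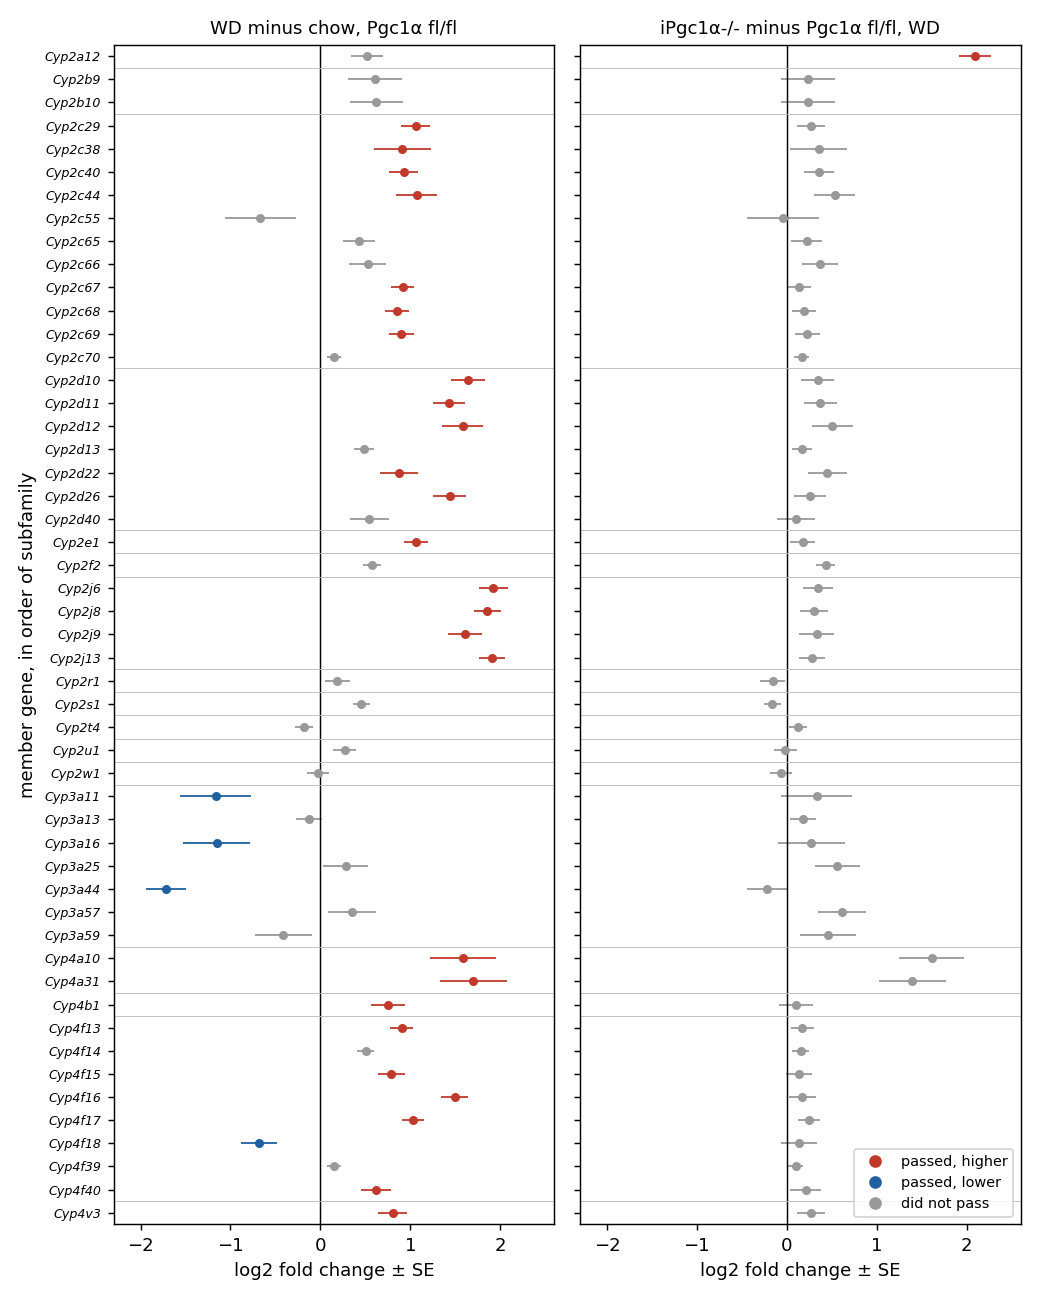
Log2 fold change with its standard error for each of the 51 members, WD minus chow in Pgc1α fl/fl mice (left) and iPgc1α-/- minus Pgc1α fl/fl on WD (right), 6 arrays a group. Coloured points passed an adjusted p of 0.05 and a fold change of 1.5: 26 red and 4 blue on the left, 1 red (Cyp2a12) on the right, where most of the grey points lie slightly above 0.

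The Cyp2j subfamily, epoxygenases and hydroxylases of arachidonic and linoleic acid, showed the greatest median log2 difference of any subfamily with more than 1 member, 1.88. Cyp2j6, the best known of the intestinal mouse forms, had log2 signals of 8.68, 9.54 and 9.57 on chow (lowest, median and highest of 6) and 10.93, 11.22 and 11.48 on WD. Every WD array was thus above every chow array by more than 1 unit, and the difference was 1.92 ± 0.16 (SE, adjusted p = 1.2e-07). A second Cyp2j6 probe gave 2.01. Cyp2j13 had 7.22, 7.93 and 8.08 on chow and 9.57, 9.64 and 9.87 on WD, a 3.75-fold rise (adjusted p = 2.86e-08). Cyp2j8 had 9.58, 10.24 and 10.49 on chow and 11.73, 11.94 and 12.23 on WD, and rose by 1.86 ± 0.15 (adjusted p = 1.01e-07). Cyp2j9, which acts on arachidonic acid, had 6.47 at the chow median and 8.25 at the WD median, and its chow high of 6.77 stayed below its WD low of 7.57 (1.61 ± 0.19, adjusted p = 5.87e-06). All 4 genes were thus separate between the diets. The 2 Cyp2j genes below the filter, Cyp2j5 and Cyp2j11, were not well above background on any array.

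The Cyp2d subfamily holds the mouse relatives of human CYP2D6, which oxidises many basic drugs. Cyp2d10 had 11.33, 12.70 and 12.99 on chow and 14.04, 14.13 and 14.31 on WD, a difference of 1.64 ± 0.19 (adjusted p = 3.85e-06). The lowest chow value was replicate 4, and the other 5 chow arrays were also below all WD arrays. Cyp2d26 had 13.73, 15.05 and 15.36 on chow and 16.17, 16.26 and 16.54 on WD, which is 2.71-fold. Both of its probes rose, by 1.44 and 1.59. Cyp2d11 had 11.95, 13.20 and 13.40 on chow and 14.36, 14.44 and 14.56 on 5 WD arrays, the spot of WD replicate 2 being left out as outlying, and rose by 1.43 ± 0.18 (adjusted p = 1.47e-05). Cyp2d12 had 9.60, 10.96 and 11.37 on chow and 12.01, 12.38 and 12.56 on WD, and rose by 1.58 ± 0.23. Cyp2d22, the closest mouse counterpart of CYP2D6, overlapped, with 5.67, 6.35 and 6.73 on chow and 6.62, 7.29 and 7.57 on WD (0.87 ± 0.21, adjusted p = 0.00532). Cyp2d13 had 5.02, 5.25 and 5.41 on chow and 5.54, 5.73 and 5.85 on WD, a difference of 0.48 under the fold limit (adjusted p = 0.00364), and its other probe differed by 0.15. Of the 5 that rose, only Cyp2d22 overlapped between the diets. Cyp2d40 did not pass (0.55, adjusted p = 0.072). Without chow replicate 4 all 5 still passed.

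Among the Cyp2c genes, whose products epoxidise arachidonic acid and oxidise drugs, 7 of 11 rose by 0.85 to 1.07. Cyp2c29, a main epoxygenase, had 9.47, 10.35 and 10.53 on chow and 10.91, 11.27 and 11.62 on WD, with no overlap (1.06 ± 0.16, adjusted p = 6.66e-05). Cyp2c44, an epoxygenase that RefSeq now lists as Cyp2c23, had 5.70, 6.42 and 7.23 on chow and 7.22, 7.35 and 8.05 on WD, and rose by 1.07 ± 0.23 (adjusted p = 0.00197). Only its highest chow array lay above any WD array. A second Cyp2c44 probe differed by 0.43 (adjusted p = 0.0261), under the fold limit. Cyp2c40, Cyp2c67, Cyp2c68 and Cyp2c69, which share probe targets, rose by 0.93, 0.91, 0.85 and 0.90, at adjusted p of 3.69e-05 to 0.000369. Cyp2c40 had 7.74, 8.48 and 8.76 on chow and 8.85, 9.39 and 9.85 on WD. Cyp2c67 had 8.60, 9.35 and 9.47 on chow and a lowest of 9.98 and a highest of 10.47 on WD. The other 2 were separate between the diets as well, with chow medians of 10.31 and 9.67 and WD medians of 11.01 and 10.48 for Cyp2c68 and Cyp2c69. Cyp2c38 passed at 0.91 ± 0.32 with an adjusted p of 0.0427, and its highest WD array, replicate 4, stood at 8.39 against a WD median of 6.88. That call was lost when any 1 of 10 arrays was left out, and the value without WD replicate 4 was 0.61 (adjusted p = 0.105).

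The other 4 Cyp2c genes did not pass. Cyp2c65 and Cyp2c66, neighbours described in mouse intestine, differed by 0.43 and 0.52 (adjusted p = 0.0828 and 0.0662). Cyp2c65 had 11.91, 12.61 and 12.89 on chow and 12.48, 13.04 and 13.34 on WD, and Cyp2c66 overlapped in the same way. Cyp2c55, a 19-hydroxylase of arachidonic acid, had 9.71, 10.33 and 10.86 on chow and 8.09, 10.28 and 10.35 on WD, so the medians lay close, and the mean difference of -0.67 ± 0.40 did not pass (adjusted p = 0.239). Cyp2c70, which makes muricholic acids from chenodeoxycholic acid in mouse liver, was at 5.86 to 6.22 on all 12 arrays, with a difference of 0.15.

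The Cyp3a genes parted into members that fell and members that did not pass. Cyp3a11, the main mouse CYP3A and a classic PXR target, had 10.68, 12.02 and 12.97 on chow and 9.37, 11.22 and 11.49 on WD. The groups overlapped, and the log2 signal fell by 1.16 ± 0.39 (adjusted p = 0.0384). Cyp3a16, a form known from fetal liver, followed the same pattern, with 10.70, 11.93 and 12.85 on chow and 9.27, 11.16 and 11.38 on WD (adjusted p = 0.0293). It fell by 1.15. In both genes the lowest WD array was replicate 6 and the highest chow arrays were replicates 3 and 6. The Cyp3a11 call was lost without any 1 of chow replicates 2, 3, 5 and 6 and WD replicates 1 and 6, at adjusted p up to 0.1, and the Cyp3a16 call without any 1 of chow replicates 3, 5 and 6 and WD replicates 1 and 6, at adjusted p up to 0.076. The log2 difference without WD replicate 6 was -0.87 for Cyp3a11 and -0.86 for Cyp3a16.

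Cyp3a44, a form that is female-specific in mouse liver, fell furthest. It had 5.91, 6.74 and 7.68 on chow and 4.82, 5.05 and 5.45 on WD, with no overlap, and was well above background on 6, 3 and 1 arrays of the 3 groups. Its log2 signal fell by 1.71 ± 0.22 (adjusted p = 1.53e-05), and near background this understates the change. Cyp3a41a, whose name has a further letter and which is therefore no member, also fell, by 1.05 (adjusted p = 0.0248). Its medians were 15.32 on chow and 14.46 on WD, but signals of different probes do not rank RNA levels. Which further transcripts the Cyp3a41a probe lists was not determined, so its fall cannot be assigned to Cyp3a41a alone. The Cyp3a11 probe lists transcripts of Cyp3a41a, Cyp3a41b and Cyp3a44, so the fall of Cyp3a11 cannot be told apart from theirs. Cyp3a13, the member of this cluster farthest from the others and the form known best from intestine, had 12.88, 13.70 and 14.02 on chow and 13.30, 13.48 and 13.56 on WD, so that the WD arrays lay within the chow range (-0.13 ± 0.15, adjusted p = 0.555). Cyp3a25, Cyp3a57 and Cyp3a59 differed by 0.28, 0.35 and -0.41 (adjusted p of 0.361 to 0.447). In all 3, as in Cyp3a11 and Cyp3a16, the WD median and WD high lay close together and the low far below them, at 10.85 against a median of 12.32 for Cyp3a25.

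Promoter sequences were at hand for 43 of the 51 members (RefSeq, GRCm38, 250 bases before to 50 after the start, first entry of a gene). The core CAAAGTCCA, a form bound by HNF4, was searched on both strands and stood in 8 of the 43 (18.6%) and in 0.477% of all 27025 promoters. The 8 were Cyp2c40, Cyp2c65, Cyp2c67, Cyp2c68, Cyp2c69, Cyp2c70, Cyp3a11 and Cyp3a16. Neighbours share much of this sequence (Cyp2c40 and Cyp2c69 match at 267 of 270 aligned bases, Cyp3a16 and Cyp3a44 at 278 of 296), so they are not separate occurrences. The nuclear receptor half-site AGGTCA stood in 11 of 43 (25.6%, against 16.0% of all) and AGTTCA in 5 (11.6%, against 14% of all). CAAAGTCCA contains neither of these 6-letter forms. The D-box forms TTATGTAA and TTACGTAA, bound by Dbp, Tef and Hlf, stood in 0 of 43, and in 0.955% and 0.107% of all promoters. A match is a description of these letters and not a site. The 3 Cyp3a promoters of the genes that fell are shown with CAAAGTCCA, AGGTCA and AGTTCA matches on either strand in capitals.
Cyp3a11, chr5:145879805-145880104, minus strand: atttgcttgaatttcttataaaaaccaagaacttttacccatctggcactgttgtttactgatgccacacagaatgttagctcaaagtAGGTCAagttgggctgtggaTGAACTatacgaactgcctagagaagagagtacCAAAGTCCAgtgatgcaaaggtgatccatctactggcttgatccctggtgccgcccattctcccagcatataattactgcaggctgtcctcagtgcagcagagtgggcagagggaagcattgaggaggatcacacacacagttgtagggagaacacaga
Cyp3a16, chr5:145469674-145469973, minus strand: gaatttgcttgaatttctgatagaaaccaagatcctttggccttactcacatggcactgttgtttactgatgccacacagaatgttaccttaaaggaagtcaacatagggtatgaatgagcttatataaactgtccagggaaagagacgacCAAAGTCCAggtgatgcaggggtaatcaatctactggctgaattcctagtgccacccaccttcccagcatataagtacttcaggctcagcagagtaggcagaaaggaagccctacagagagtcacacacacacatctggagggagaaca
Cyp3a44, chr5:145805825-145806124, minus strand: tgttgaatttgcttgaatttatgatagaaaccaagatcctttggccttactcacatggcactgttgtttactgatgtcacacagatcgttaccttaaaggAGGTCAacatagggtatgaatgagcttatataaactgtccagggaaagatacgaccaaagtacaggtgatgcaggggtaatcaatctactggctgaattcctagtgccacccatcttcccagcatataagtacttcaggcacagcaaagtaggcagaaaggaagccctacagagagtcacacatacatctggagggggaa
In Cyp3a44, the place aligned to the CAAAGTCCA of Cyp3a16 differs by C7A, counted from the first base of the motif. Cyp2c40, one of the Cyp2c genes that rose, is shown in the same way.
Cyp2c40, chr19:39812765-39813064, minus strand: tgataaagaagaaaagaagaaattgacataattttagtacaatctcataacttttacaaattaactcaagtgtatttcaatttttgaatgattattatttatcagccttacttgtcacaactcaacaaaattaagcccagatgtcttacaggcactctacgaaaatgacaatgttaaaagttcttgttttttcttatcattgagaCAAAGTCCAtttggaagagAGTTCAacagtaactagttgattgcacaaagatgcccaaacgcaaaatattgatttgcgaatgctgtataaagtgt
The same core thus stood in promoters of members that rose, that fell and that did not pass.

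Family 4 mostly rose. Cyp4a10, a fatty acid omega-hydroxylase and classic PPARα target, had 5.08, 6.01 and 7.54 on chow and 7.17, 7.66 and 9.19 on WD. Only chow replicate 3 was above any WD array, and the difference was 1.59 ± 0.36 (adjusted p = 0.00333). Cyp4a31, its neighbour, had 6.30, 7.60 and 9.10 on chow and 8.68, 9.33 and 10.77 on WD, also overlapping, a difference of 1.70 ± 0.37 (adjusted p = 0.00232). Cyp4b1, which hydroxylates short and medium chain fatty acids, had 10.95, 12.11 and 12.48 on chow and 12.42, 12.73 and 12.96 on WD, and rose by 0.75 ± 0.19 (adjusted p = 0.00624). Without chow replicate 4, its lowest array, the difference was 0.55, under the fold limit. Cyp4v3, the mouse form of the fatty acid hydroxylase CYP4V2, had a lowest of 12.61 and a median of 13.75 on chow and 14.32, 14.41 and 14.57 on WD, with no overlap (0.81 ± 0.16, adjusted p = 0.0011).

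The Cyp4f genes encode hydroxylases of leukotriene B4 and other long chain lipids. Cyp4f16 had 9.91, 10.08 and 10.35 on chow and 11.40, 11.54 and 12.06 on WD, with no overlap and a 2.82-fold rise (adjusted p = 8.43e-07). Both of its probes rose. Cyp4f17 had 9.46, 9.62 and 9.92 on chow and 10.47, 10.70 and 10.83 on WD, and rose by 1.03 ± 0.12 (adjusted p = 7.07e-06). Cyp4f13 had 10.01, 10.25 and 10.56 on chow and 10.94, 11.18 and 11.33 on WD, and rose by 0.91 ± 0.13, while its other probe differed by 0.29 (adjusted p = 0.0785). These 3 neighbours were each separate between the diets. Cyp4f15 was well above background on 3 of 6 chow arrays and rose by 0.79 ± 0.15 (adjusted p = 0.000673). Cyp4f40 had 7.78, 8.15 and 8.46 on chow and a lowest of 8.36 and a median of 8.74 on WD, with an overlap, and rose by 0.62 ± 0.17 (adjusted p = 0.0105). It lay near the fold limit and dropped under it without chow replicate 1 or WD replicate 3 or 5 (0.55 to 0.58). Cyp4f39, an omega-hydroxylase of skin lipids, differed by 0.15 (adjusted p = 0.181). Cyp4f14, a leukotriene B4 omega-hydroxylase, had 15.41, 15.83 and 15.98 on chow and 16.02, 16.32 and 16.46 on WD, a difference of 0.50 with no overlap at an adjusted p of 0.000638, under the fold limit.

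Cyp4f18, the leukotriene B4 hydroxylase of neutrophils and the member outside the cluster of chromosome 17, was the only Cyp4f gene that fell. It had 7.22, 7.95 and 8.70 on chow and 7.03, 7.26 and 7.80 on WD, and fell by 0.68 ± 0.20 (adjusted p = 0.0181). Without chow replicate 1 it fell by 0.54, under the fold limit. Its 2 other probes had -0.47 and -0.48, at adjusted p of 0.0482 and 0.00818. Of 4 myeloid markers measured, Itgax was lower on WD by 0.82 (adjusted p = 0.0074), and Cd68 had -0.31, under the fold limit (adjusted p = 0.0268). Csf1r and Lyz2 differed by -0.04 and -0.08. The summed signal was 14.40 to 15.52 on chow and 14.24 to 16.08 on WD. Lyz2 alone had 14.35 to 15.50 and 14.20 to 16.06, so the sum follows this gene and not the dimmer Itgax, Cd68 and Csf1r.

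**Figure D3:**
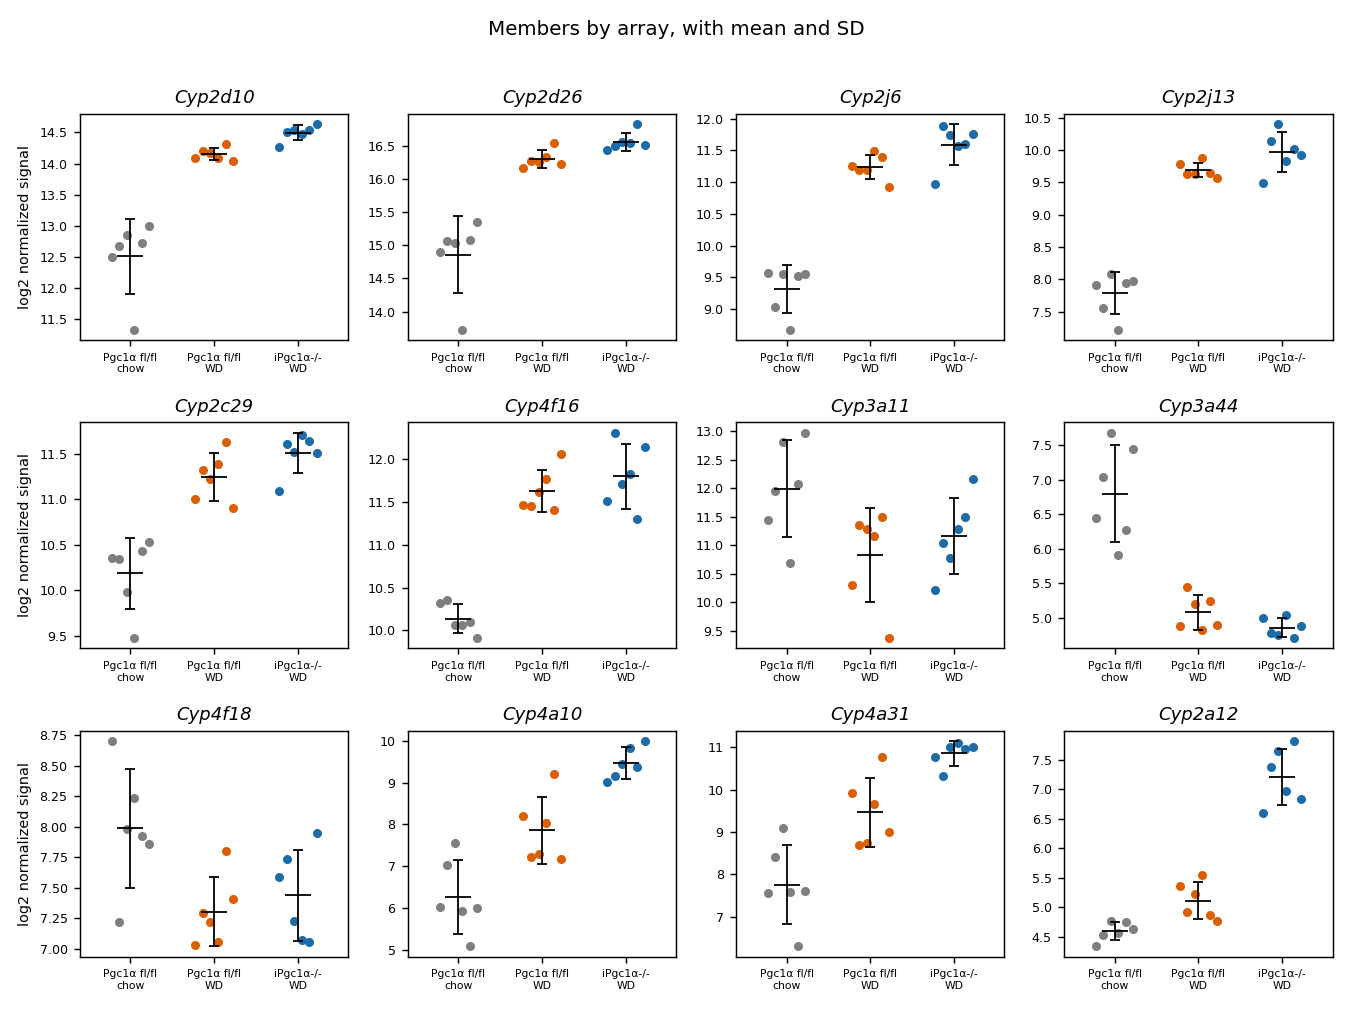
Log2 normalized signal of 12 members on each array, as points, with mean and SD in black, for the 3 groups of 6. The Cyp2d, Cyp2j and Cyp4f16 panels show WD arrays wholly above chow, Cyp3a44 wholly below, Cyp3a11 and Cyp4f18 overlapping, and Cyp2a12 set apart in iPgc1α-/- only.

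The subfamilies with a single member were mixed. Cyp2e1, which oxidises ethanol and ketones, had 4.86, 5.27 and 5.40 on chow and 6.02, 6.12 and 6.81 on WD (1.06 ± 0.14, adjusted p = 1.41e-05), and was well above background on 4 of 6 chow arrays. Cyp2f2, known from naphthalene oxidation in lung, was well above background on 0 of 6 chow and 4 of 6 WD arrays. Its measured means differed by 0.57 (adjusted p = 0.000408), under the fold limit. The WD mean was 1.42-fold above the lowest signal well above background on the chow arrays. That mean includes WD arrays not well above background, so 1.42-fold is not a strict lower bound. Cyp2s1, an extrahepatic form that acts on retinoids, had 12.93, 13.15 and 13.47 on chow and 13.49, 13.62 and 13.71 on WD, a difference of 0.46 with no overlap and under the fold limit (adjusted p = 0.00174). Cyp2r1, a vitamin D 25-hydroxylase, Cyp2t4 and Cyp2w1 did not pass, at 0.19, -0.18 and -0.03. Cyp2u1, a fatty acid hydroxylase, depended on the probe. Its brightest probe, for which the array annotation lists no RefSeq transcript, differed by 0.27 (adjusted p = 0.132) and its 2 other probes by 1.04 and 0.95 (adjusted p = 1.66e-05 and 9.25e-05), each without overlap.

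The arrays of a group were close together for some members and spread for others. For Cyp2d10 the SD over 6 arrays was 0.60 on chow and 0.10 on WD, and for Cyp2d26 0.57 and 0.13. For Cyp3a11 it was 0.85 and 0.83 and for Cyp4a31 0.94 and 0.82, so these 2 genes were spread on either diet, whereas Cyp3a13 had 0.40 and 0.10. Cyp2c55 was the most spread on WD, where replicates 1 and 6 stood at 8.09 and 8.27 and the others at 10.27 to 10.35.

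Cyp2b10, the classic CAR target, and Cyp2b9, at 0.60 ± 0.30 (adjusted p = 0.159), did not pass. Cyp2b10 had 12.69, 14.44 and 14.85 on chow and 14.04, 14.83 and 15.33 on WD. The lowest chow value was replicate 4, and the difference was 0.62 ± 0.30 (95% interval 0.00 to 1.24, adjusted p = 0.139). In 6 members, Cyp2a12, Cyp2e1, Cyp2f2, Cyp3a44, Cyp4f15 and Cyp4f39, fewer than 5 arrays of at least 1 group were well above background, so these passed the filter through their brighter group. By diet, Cyp2e1 and Cyp4f15 of the 6 rose and Cyp3a44 fell.

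Genes that serve the P450s were counted next. Of 11 genes of electron supply and haem handling, 2 rose and none fell on WD, at a median difference of 0.04. Por, which feeds electrons to every microsomal P450, had 13.19, 13.47 and 14.07 on chow and 14.25, 14.37 and 14.46 on WD, with no overlap (0.82 ± 0.11, adjusted p = 1.73e-05). Cyb5r3, a cytochrome b5 reductase, rose by 0.68. Alas1, the first enzyme of haem synthesis, and Fech, the last, differed by -0.05 and 0.04 (adjusted p = 0.713 and 0.784).

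Of 19 nuclear receptors and partners, 3 rose and 2 fell. Ppara had 11.23, 11.30 and 11.69 on chow and 12.66, 13.02 and 13.23 on WD (1.63 ± 0.11, adjusted p = 7.84e-09). Nr1h3, the oxysterol receptor LXRα, rose by 0.67. Nr0b2, the corepressor SHP, was well above background on 0 of 6 chow and 5 of 6 WD arrays. Its measured mean was higher on WD by 0.68 (adjusted p = 0.000887). Set against the chow arrays as for Cyp2f2, the WD mean was 1.53-fold higher, again not a strict bound. Nr1h4, the bile acid receptor FXR, fell by 0.78 and Pparg by 0.64. Nr1i2 and Nr1i3, the receptors for which Cyp3a11 and Cyp2b10 are textbook targets, differed by 0.38 (adjusted p = 0.0528) and 0.52 (adjusted p = 0.0171, under the fold limit). Hnf4a differed by -0.13 (adjusted p = 0.411).

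Target genes of these receptors outside the P450s were counted too. Of 16 PPARα targets 5 rose and none fell (median 0.37), with Pdk4, the pyruvate dehydrogenase kinase, at 2.27, Cd36, a fatty acid translocase, at 1.94, Fabp1 at 0.88, Acaa1b at 0.84 and Plin2 at 0.65. Of 9 measured PXR and CAR targets 4 rose and 1 fell (median 0.50). Aldh1a1, a retinal dehydrogenase, rose by 1.56 and Abcc2, a conjugate efflux pump, by 1.13, with Abcb1a and Ces2a each at 0.75, and Akr1b7, an aldose reductase relative, fell (adjusted p = 0.00339). Of 13 measured epoxide hydrolase and eicosanoid genes 3 rose and none fell (median 0.35), among them Ltc4s, the leukotriene C4 synthase, by 1.44 and Ptgr1, a prostaglandin reductase, by 0.97. Ephx2, which hydrolyses the epoxides that Cyp2c and Cyp2j enzymes make, rose by 0.83 (adjusted p = 0.00197).

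The PAR bZIP factors Dbp, Tef and Hlf are clock outputs that drive P450 genes in liver and gut. Of 7 factors of this list, 4 rose and 1 fell on WD (median 1.27). Dbp had 8.46, 9.85 and 11.69 on chow and 13.00, 13.53 and 13.71 on WD, a difference of 3.51 ± 0.33 (adjusted p = 4.64e-07) with no overlap. Tef rose by 1.63, Hlf by 1.32 and Nr1d2 by 1.27, and Nfil3, which binds the same D-box as a repressor, fell by 1.23. All samples were taken at the same zeitgeber time, so one point of the daily cycle was measured.

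**Figure D4:**
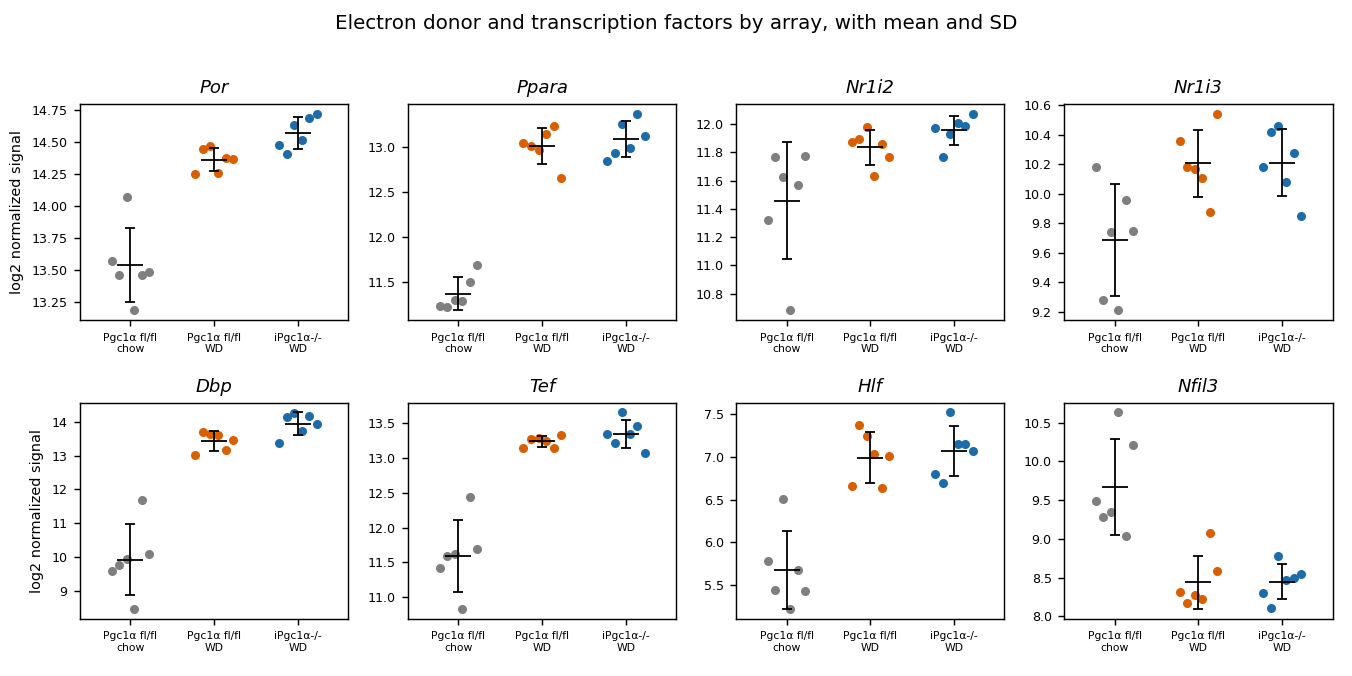
Log2 normalized signal of Por and of 7 transcription factor genes on each array, as points, with mean and SD in black, for the 3 groups of 6. Por, Ppara, Dbp, Tef and Hlf lie wholly higher on WD, while Nr1i2, Nr1i3 and Nfil3 overlap between the diets; in each panel both WD groups overlap.

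P450s outside the 3 families are mostly enzymes of sterol, bile acid and hormone synthesis. Of 22 such names on the array 9 passed the filter, none rose and 1 fell. Cyp51, the lanosterol demethylase of cholesterol synthesis, fell by 1.67 (adjusted p = 2.71e-07). Cyp1a1, Cyp1a2, Cyp1b1, Cyp7a1, Cyp8b1 and Cyp24a1 were below the filter.

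The second comparison took WD alone and asked how iPgc1α-/- mice, by their labels, differed from Pgc1α fl/fl mice. It shares its Pgc1α fl/fl WD arrays with the first comparison. Only 1 member passed, Cyp2a12, which was higher (1.96%, against 0.135% of all genes), and it had entered the set through the iPgc1α-/- arrays alone. Of the 45 members that met the filter in every group, limma called 0 and 9 had an unadjusted p under 0.05, and the share of 1.96% is no support for the members as a set. At an unadjusted p under 0.05 there were 11 members (21.6%, against 9.28% of all genes), all higher, and the arrays did not overlap for 2 (3.92%, against 0.32%). The 2 were Cyp2a12 and Cyp2d11, the latter with only 5 Pgc1α fl/fl WD arrays, so the share of 3.92% is no support for the members as a set either. The log2 difference was above 0 for 45 of 51 members and for 11179 of 21542 genes, with medians of 0.24 and 0.01. These members share arrays and, in part, probe targets, so their signs are not independent.

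Cyp2a12, a liver enzyme that hydroxylates steroids and bile acids, had 4.34, 4.60 and 4.78 on Pgc1α fl/fl chow, 4.76, 5.07 and 5.54 on Pgc1α fl/fl WD and 6.59, 7.18 and 7.81 on iPgc1α-/- WD. It was well above background on 0, 2 and 6 arrays of these groups. All iPgc1α-/- arrays lay above all others, and the difference on WD was 2.09 ± 0.18 (adjusted p = 1.63e-06). The gene passed the filter through the iPgc1α-/- group, where it was high, and 4 of the 6 Pgc1α fl/fl WD arrays had no signal well above background, so the size is that of the measured means and not of levels that were all above background. Within the 3 slides the difference was 2.70, 1.61 and 1.96. By diet its measured means differed by 0.51 in Pgc1α fl/fl mice (adjusted p = 0.0427), under the fold limit. With 0 of 6 chow and 2 of 6 WD arrays well above background, no lower bound can be set on that difference. No other Cyp2a gene passed the filter. Cyp2a4, Cyp2a5 and Cyp2a22 were each well above background on at most 1 array of any group. The promoter of Cyp2a12 holds none of CAAAGTCCA, AGGTCA or AGTTCA, and is shown because this gene carries the single genotype call.
Cyp2a12, chr7:27028840-27029139, plus strand: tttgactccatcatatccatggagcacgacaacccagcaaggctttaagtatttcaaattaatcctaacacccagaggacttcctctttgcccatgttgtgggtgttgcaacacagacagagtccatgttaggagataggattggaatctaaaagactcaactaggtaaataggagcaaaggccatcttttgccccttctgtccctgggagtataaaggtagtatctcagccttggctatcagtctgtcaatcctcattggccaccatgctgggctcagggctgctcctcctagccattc
Its probe is the only one for this gene on the array and lists no transcript of another gene.

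The Cyp4a genes had the next greatest differences. Cyp4a10 had a lowest signal of 9.01 and a median of 9.41 on iPgc1α-/- WD, against 7.17, 7.66 and 9.19 on Pgc1α fl/fl WD. Only 1 Pgc1α fl/fl array, replicate 5, reached into the iPgc1α-/- range, and the difference of 1.61 ± 0.36 had an adjusted p of 0.0894 (exact two-sided permutation p = 0.00649). Of its 2 other probes, 1 passed at 1.37 (adjusted p = 0.0319) and 1 had 0.61 (adjusted p = 0.0849). Cyp4a31 had 10.31, 10.98 and 11.09 on iPgc1α-/- WD against 8.68, 9.33 and 10.77, a difference of 1.40 ± 0.37 (adjusted p = 0.201, exact two-sided permutation p = 0.00649). Its second probe had 0.57 (adjusted p = 0.124). Without WD replicate 5 both passed, Cyp4a10 at 1.90 (adjusted p = 0.0157) and Cyp4a31 at 1.67 (adjusted p = 0.048). Cyp4a10 also passed without chow replicate 3, at an adjusted p of 0.0433. The other member with separate groups was Cyp2d11, at 0.37 ± 0.18 with an adjusted p of 0.528.

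Among the other members Cyp2f2 had the lowest adjusted p, with 5.42, 5.72 and 5.97 on iPgc1α-/- WD against 4.96, 5.29 and 5.57 (0.43 ± 0.10, adjusted p = 0.126). It was well above background on 0, 4 and 6 arrays of the 3 groups. Like Cyp2a12, it thus passed the filter only through the iPgc1α-/- group, where it was high, and is no support for a genotype difference. Cyp3a57 and Cyp3a25, whose probes are nearly the same, differed by 0.62 and 0.56 (adjusted p = 0.486 and 0.498), and Cyp2c44 by 0.53. The members below 0 were Cyp3a44 (-0.22), Cyp2s1 (-0.16), Cyp2r1 (-0.16), Cyp2w1 (-0.06), Cyp2c55 (-0.04) and Cyp2u1 (-0.02). For the 4 Cyp2j genes, the differences by genotype were 0.28 to 0.35, and for Cyp2j6 the 95% interval was 0.01 to 0.68. By limma, none of the 87 genes of the partner, receptor, clock, target and further P450 lists passed, and 17 had an unadjusted p under 0.05 (19.5%, against 9.28% of all genes). Por differed by 0.21 (adjusted p = 0.548), Ppara by 0.07 and Cd36 by 0.66 (adjusted p = 0.42). Esrra, a main partner of Pgc1α, was lower by 0.41 at an adjusted p of 0.0483, under the fold limit. Of 74 cell type markers none passed and 9 had an unadjusted p under 0.05 (12.2%, against 9.28% of all genes).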

How the data were processed

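Gene expression was measured with one-colour SurePrint G3 Mouse arrays (Agilent, Cy3 label), 6 per group, with groups and replicate numbers from the labels. The authors deposited the spot intensities of Agilent Feature Extraction 10.10.1.1, not normalized between arrays, and a table of log2 values that, per their methods, were filtered, corrected for batches (washing bath and labelling, not named in the labels) and normalized by qsmooth. From the median spot intensity, log2 values were taken after leaving out outlying spots (46 to 153 per array) and probes not well above background on 5 of 6 arrays of a group, and smooth quantile normalization by group (window 0.05) was applied, without the batch correction. All 18 arrays and 32726 probes entered one limma 3.58.1 model (R 4.3.3), with Benjamini-Hochberg adjustment. A call needed an adjusted p of at most 0.05 and a fold change over 1.5, and the script was tested on simulated data. A gene is its brightest probe. Differences are on the log2 scale, which is compressed near background, and the number of arrays limits the precision (median SE 0.10).

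The members, lists and markers were chosen with earlier results of these data known. Named in full were members that passed, members past the adjusted p limit alone, the brightest probe of each subfamily, list genes that passed and members just inside or outside the filter. Cohorts are not given for the samples, so p-values measure the spread between these mice. Motifs were searched in RefSeq promoters of GRCm38, and probe positions are mm9, per the file headers. Alternatives changed the signal, background correction, normalization, filter, blocks, variance model, weights, probe choice and thresholds, and left out each array in turn.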

Additional observations from a re-analysis of the deposited data

Results flagged for a closer look

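Of 153 groups of 6 arrays (51 members in 3 groups; 1 group has 5), 12 had a lowest or highest array far from the other arrays by Dixon's test, which chance alone gives in about 1 in 20 groups. Chow replicate 4 accounted for 7 of them, always as the lowest array: Cyp2d10 at 11.33 (next array 12.5), Cyp2d11 at 11.95 (13.07), Cyp2d26 at 13.73 (14.9), Cyp2c67 at 8.6 (9.15), Cyp2c69 at 8.9 (9.58), Cyp4f14 at 15.41 (15.78) and Cyp4v3 at 12.61 (13.74). Members share probe targets and arrays, so these are not independent. iPgc1α-/- WD replicate 1 was the lowest array for Cyp2c29 at 11.09 (next array 11.51), Cyp2c68 at 10.89 (11.21) and Cyp2j6 at 10.97 (11.56). The highest array stood apart for Cyp2d26 in iPgc1α-/- WD replicate 5, at 16.82 (next array 16.55), and for Cyp4f15 in Pgc1α fl/fl WD replicate 5, at 6.43 (next array 5.71). Why these arrays stood apart was not tested.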

How the results depend on the processing

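With each array left out in turn, 28 to 31 members passed by diet, 24 to 29 of them higher and 2 to 4 lower, and 1 to 3 by genotype. The count lower on WD, 4, was 2 with background-subtracted signals scaled to the 75th percentile, 2 with normexp and quantile normalization, and 1 at an adjusted p of 0.01, and the cause was not tested. The genotype count, 1, was 2 with normexp, 2 with only the groups compared in the fit and 2 when any probe of a gene could carry the call, each time Cyp2a12 with Cyp4a10. It was 0 among the 44 members well above background on all arrays, since Cyp2a12 was then not tested. Without Pgc1α fl/fl WD replicate 5 it was 3 and without chow replicate 3 it was 2. Over all settings the adjusted p by genotype ran from 0.0157 to 0.282 for Cyp4a10 and from 0.048 to 0.464 for Cyp4a31. Cyp3a11 was no longer called by diet in 7 of 16 settings that kept all arrays. No member changed direction where it had been called. Same-numbered arrays correlated at -0.13 to 0.28 between diets and -0.19 to 0.33 between genotypes, with 4 of 6 and 3 of 6 pairs over 0.1 and as many arrays closest to their own number. Not every pair was over 0.1, so the main fit used no pairing, but a relation between some same-numbered arrays is not excluded. With the replicate number as a replicate block 30 members passed by diet and 1 by genotype, as with the slide as a block.

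Dim members limit what can be seen: 6 of 51 were near background in at least 1 group, 9 probes list a further gene's transcript, and 8 members had no promoter sequence here.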
